A study of Mus musculus with 16 samples.

Results

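The genes described here are 10 genes of lipid uptake, transport and storage: Cd36, Lpl, Fabp3, Fabp4, Fabp5, Apoe, Acsl1, Dgat2, Plin2 and Lipa. They were taken by symbol from a table of 24001 gene rows, where each symbol had 1 row, and were followed across all 8 groups. All 10 reached 1 FPKM (sequenced fragments scaled by transcript length and library total) in at least 2 libraries and so were among the 11349 genes tested. Apoe did so only through its WT and Ex3a OVX vehicle libraries and 1 WT agonist library, the groups where it is high. Its differences involving those groups are therefore given as values with no test, and counts are also given without it, an alternative added after the data were seen.

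Fatty acids reach a cell from lipoproteins and from the medium. Lipoprotein lipase (Lpl) frees them from triglyceride, the scavenger receptor Cd36 takes up fatty acids and oxidized lipoproteins, and fatty acid-binding proteins (Fabp3, Fabp4 and Fabp5) carry them in the cytosol. Acyl-CoA synthetase (Acsl1) activates them, diacylglycerol acyltransferase (Dgat2) makes triglyceride, and perilipin 2 (Plin2) coats the lipid droplets in which it is stored. Lysosomal acid lipase (Lipa) frees fatty acids and cholesterol from lipoproteins taken up by endocytosis, and apolipoprotein E (Apoe), which macrophages secrete, carries lipid between cells. Dendritic cells take antigen up through the same endosomes and lysosomes, and Toll-like receptor agonists are known to change their lipid metabolism.

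Marrow from NZM2410 mice, which develop a lupus-like disease as an inbred strain, was cultured into dendritic cells over 7 days with GM-CSF at 20 ng/ml plus IL-4 at 10 ng/ml. They were then given agonist (loxoribine for the receptor TLR7, with 1 μg/ml CpG for TLR9) or vehicle for 24 h, and RNA was sequenced from 2 libraries in each of 8 groups. Ex3a OVX cells came from mice labelled ERKO NULL, without estrogen receptor α, that were ovariectomized at 4 to 8 weeks of age and given a 0.25 mg estradiol pellet that lasts 90 days. ERKO OVX cells came from mice with the truncated receptor ERα short, ovariectomized and given the same pellet. KO cells came from unoperated ERα short mice, and WT cells from unoperated mice with the wild-type receptor. The sources used here give no age at which marrow was taken. The title of the series speaks of a knockout in CD11c+ cells, but the sample labels name no Cre driver, and the sources used here do not say which cells carried each allele.

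The labels do not agree on the allele. Groups follow the source label, whereas the genotype label and description give the null allele to KO vehicle and ERKO OVX vehicle cells and call both Ex3a OVX groups ERα short. Esr1, the gene of the receptor, measured 0.364 and 0.317 FPKM with agonist and 0.347 and 0.283 FPKM with vehicle in Ex3a OVX cells, and 1.12 and 1.16 FPKM with agonist and 1.02 and 0.982 FPKM with vehicle in ERKO OVX cells. In KO cells it measured 2.01 and 1.77 FPKM with agonist and 2.47 and 2.57 FPKM with vehicle, and in WT cells 0.937 and 0.684 FPKM with agonist and 1.21 and 1.38 FPKM with vehicle. A level per gene cannot tell a truncated allele from a whole one, so these values do not check the labels.

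Estimated depth was 17.55 to 23.4 M fragments in the 8 ovariectomized libraries and 36.2 to 42.75 M fragments in the 8 unoperated ones. The FPKM of all rows summed to 612322 to 696321 in ovariectomized and 481738 to 522287 in unoperated libraries. Surgery, estradiol and these library properties go together and cannot be told apart. In each ovariectomized group both libraries agreed within sampling noise, so they were averaged and counted as 1 sample, and the tests take their error from the unoperated libraries. Whether paired libraries stem from different animals or cultures is unstated, and the p-values therefore reflect library-to-library spread that may be purely technical. Where libraries are said not to overlap, the share of all tested genes with such separation was not computed. Such a statement describes the libraries only, and each ovariectomized pair remains 1 sample.

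The cells carried dendritic cell markers at a summed 5840 to 13536 FPKM over 8 genes, with Itgax (CD11c) at 86.0 to 155 FPKM. Single dendritic markers differed between arms in both directions. With vehicle, Zbtb46 averaged 2.76 FPKM in Ex3a OVX, 4.24 FPKM in ERKO OVX, 22.1 FPKM in KO and 13.4 FPKM in WT cells. Ccr7 averaged 207, 505, 1769 and 1122 FPKM in that order. Cd74, the largest part of the sum, was instead highest in Ex3a OVX and then ERKO OVX cells (8403, 7187, 4203 and 3765 FPKM). H2-Aa and H2-Ab1 had the same order of arms. Between KO and WT vehicle cells, all these dendritic markers were higher in KO cells. Fabp4, Lpl, Cd36 and Dgat2 are also adipocyte genes, but 7 adipocyte markers summed to at most 0.339 FPKM, and Lep and Cfd were at 0 in all 16 libraries. In single libraries 7 endothelial markers summed to 14.0 to 37.0 FPKM, with higher sums in ovariectomized than in unoperated libraries. Pecam1 averaged 14.1, 12.6, 1.62 and 2.05 FPKM with vehicle in the order of arms above. Tie1 went the other way, at 1.29, 0.625, 2.21 and 4.21 FPKM. The part of endothelial markers in the levels of the 10 genes was not tested. Macrophage and granulocyte precursor markers were present and differed between arms, and they are given beside the comparisons they move with. In bulk RNA, fewer cells of a type and less RNA per cell cannot be told apart.

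**Figure D1:**
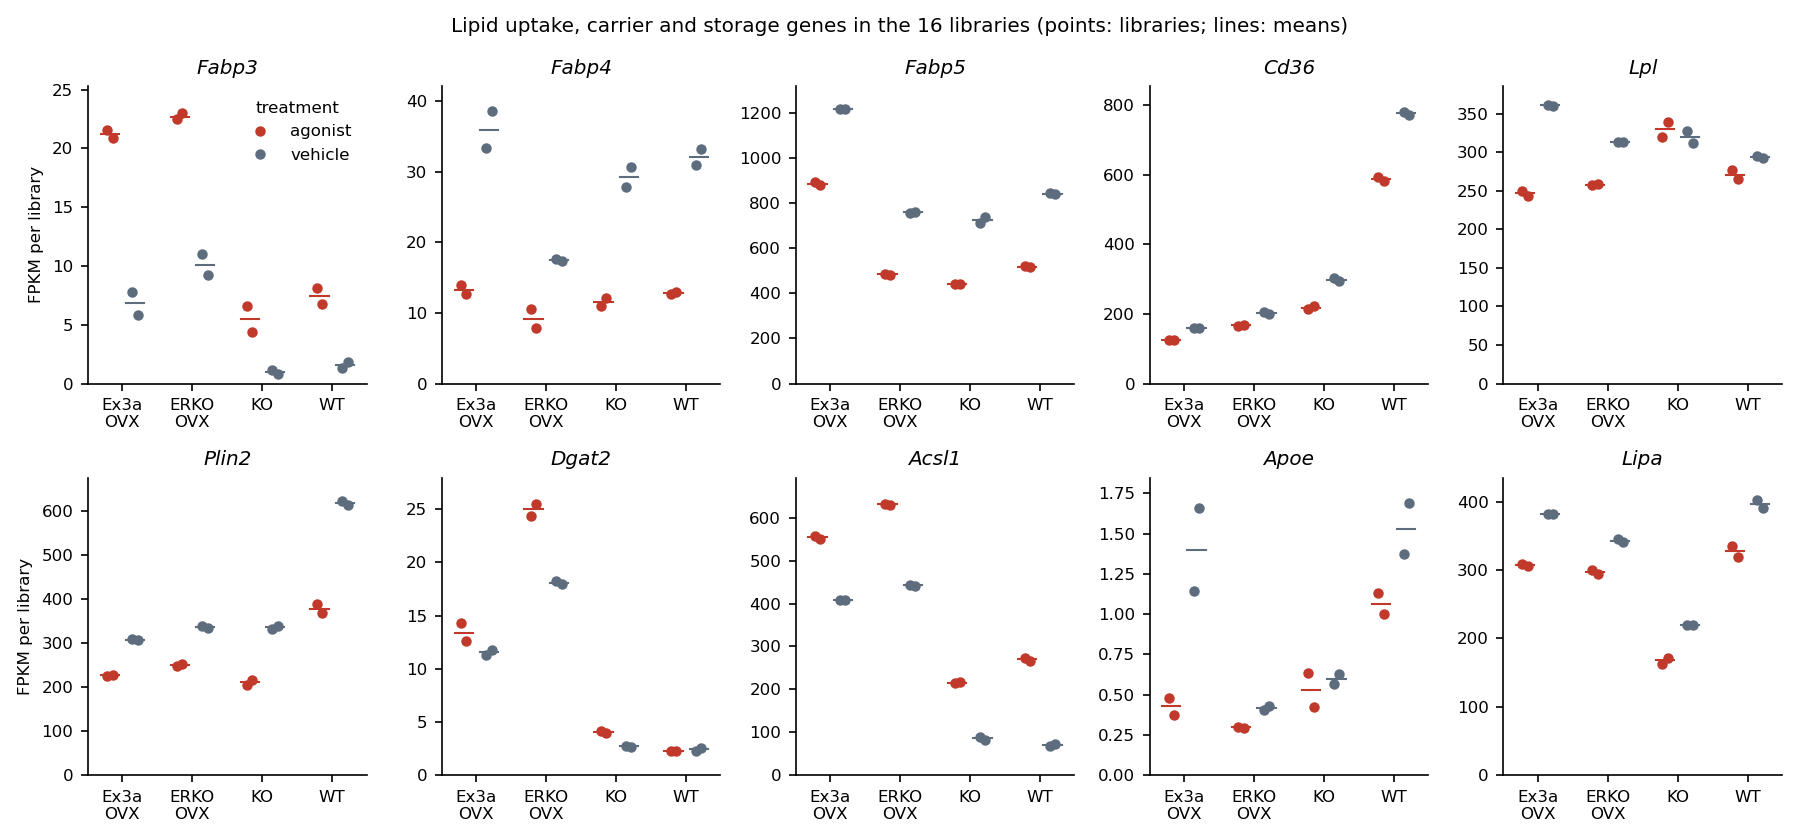
Level of each of the 10 genes in FPKM on the vertical axis, by arm on the horizontal axis. Points are libraries, lines are the mean of 2 libraries, red is agonist and grey is vehicle. Cd36 and Plin2 were highest in WT vehicle cells (782 and 772 FPKM for Cd36), whereas Acsl1 was highest in ERKO OVX agonist cells (633 and 630 FPKM).

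Per length, Fabp5 was the most abundant of the 10 in 6 of the 8 groups and averaged 440 to 1216 FPKM over all 8. Acsl1 exceeded it in ERKO OVX agonist cells (632 FPKM against 484 FPKM for Fabp5), and Cd36 in WT agonist cells (588 FPKM against 518 FPKM for Fabp5). The range across the 8 group means was widest for Fabp3, whose highest mean was 23.0 times its lowest, and for Dgat2 (10.9 times) and Acsl1 (9.14 times). Lpl varied least, with a highest mean 1.46 times its lowest. Apoe was the least abundant of the 10 in all 8 groups, at 0.293 to 1.69 FPKM in single libraries.

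Cd36 lies on mouse chromosome 5 (chr5:17781690-17888801, minus strand, mm10), Plin2 on chromosome 4 (chr4:86648386-86670060, minus strand), Lipa on chromosome 19 (chr19:34492318-34527474, minus strand) and Acsl1 on chromosome 8 (chr8:46471037-46536051, plus strand). RefSeq promoter sequences (GRCm38.p6) were matched for Cd36, Plin2, Lipa, Acsl1, Apoe and Fabp3. The 250 bases before the start site are shown for 4 of them, since Cd36, Plin2 and Lipa were well expressed and lower in KO than in WT cells under both treatments, and Acsl1 rose with agonist in all 4 arms. The Cd36 window lies before an annotated start inside the gene's span. Capitals mark the nuclear receptor motif AGGTCA, the CCAAT box and the GC box GGGCGG on either strand. None of these motifs overlapped another.
Cd36 promoter, chr5:17835897-17836146, minus strand: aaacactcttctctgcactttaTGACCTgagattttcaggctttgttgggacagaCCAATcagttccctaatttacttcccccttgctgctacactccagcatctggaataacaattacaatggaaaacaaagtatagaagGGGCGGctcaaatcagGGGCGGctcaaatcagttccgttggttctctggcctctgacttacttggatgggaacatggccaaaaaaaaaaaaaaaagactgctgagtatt
Plin2 promoter, chr4:86670060-86670309, minus strand: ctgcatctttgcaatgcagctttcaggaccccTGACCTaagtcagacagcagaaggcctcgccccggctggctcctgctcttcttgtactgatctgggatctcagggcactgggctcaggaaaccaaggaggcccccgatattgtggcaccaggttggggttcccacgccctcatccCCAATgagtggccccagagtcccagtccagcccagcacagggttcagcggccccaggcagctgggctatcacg
Lipa promoter, chr19:34527475-34527724, minus strand: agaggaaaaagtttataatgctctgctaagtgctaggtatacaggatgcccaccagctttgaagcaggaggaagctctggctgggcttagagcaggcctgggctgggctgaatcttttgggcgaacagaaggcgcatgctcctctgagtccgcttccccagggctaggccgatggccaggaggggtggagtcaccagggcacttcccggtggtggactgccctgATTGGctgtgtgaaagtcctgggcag
Acsl1 promoter, chr8:46470787-46471036, plus strand: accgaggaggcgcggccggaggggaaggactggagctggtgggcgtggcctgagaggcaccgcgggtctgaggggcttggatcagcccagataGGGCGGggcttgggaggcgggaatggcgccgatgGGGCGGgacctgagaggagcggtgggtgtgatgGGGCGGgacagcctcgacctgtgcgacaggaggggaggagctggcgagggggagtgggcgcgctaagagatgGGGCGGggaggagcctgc

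The motif AGGTCA, which many nuclear receptors bind, stood at position -228 from the start site in the Cd36 window and at -218 in the Plin2 window, read on the opposite strand in both. It is in 14.0% of the 32851 promoter windows of this length. The Cd36 window also held a CCAAT box at -195 and GC boxes at -109 and -93, the Plin2 window a CCAAT box at -73, and the Lipa window a CCAAT box at -26. The first Acsl1 window held 4 GC boxes and no CCAAT box. A CCAAT box is in 33.8% of all windows and a GC box in 32.7%. Neither the consensus estrogen response element (0.0639% of windows), nor AGGTCA repeated in the same direction with 1 base between (0.0335%), nor the AP-1 site TGANTCA (6.75%) was in the windows of the 6 matched genes, on either strand.

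Fabp4, Fabp5, Cd36, Plin2 and Lipa fell with agonist in all 4 arms, and Acsl1 and Fabp3 rose in all 4. The share of all tested genes that passed in the same direction in all 4 arms was not computed. Among the 10 genes, 3 rose and 7 fell in Ex3a OVX cells, 3 rose and 6 fell in ERKO OVX cells, 3 rose and 5 fell in KO cells, and 2 rose and 7 fell in WT cells. Without Apoe, 3 rose and 6 fell in Ex3a OVX cells and 2 rose and 6 fell in WT cells. At the same threshold 37.3% of all tested genes passed in Ex3a OVX cells (19.1% higher and 18.2% lower), 37.5% in ERKO OVX cells (18.3% and 19.2%), 51.3% in KO cells (25.9% and 25.3%) and 57.9% in WT cells (30.8% and 27.0%). The agonist response itself differed between arms for 2 of the 10 genes in KO minus WT (1 higher and 1 lower, against 6.95% of all genes, 2.30% higher and 4.65% lower), for 4 in Ex3a OVX minus ERKO OVX (1 and 3, or 1 and 2 without Apoe, against 31.3%, 16.6% higher and 14.7% lower) and for 6 in ERKO OVX minus KO (4 and 2, against 23.8%, 11.4% higher and 12.4% lower). The median log2 difference (agonist minus vehicle, on the log2(FPKM + 1) scale used for all differences here) over the 10 genes was -0.39, -0.24, -0.22 and -0.28 in that order of arms, whereas over all tested genes it was 0.01, 0.00, 0.01 and 0.02.

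**Figure D2:**
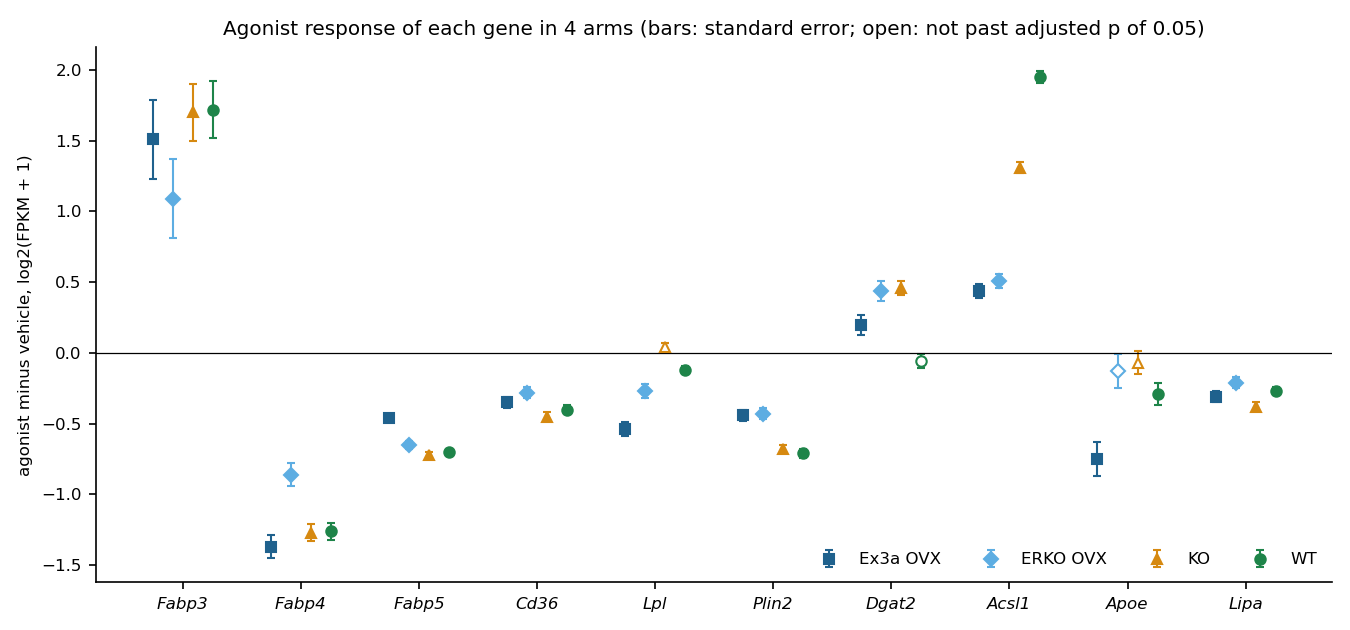
Difference between agonist and vehicle on the log2(FPKM + 1) scale for each gene, with arms as colours and shapes. Bars are standard errors from limma, and open symbols did not pass an adjusted p of 0.05. For Apoe in Ex3a OVX and WT cells the filling of the symbol carries no weight as a test. Fabp3 and Acsl1 lie above 0 and Fabp4, Fabp5, Cd36, Plin2 and Lipa below 0 in all 4 arms.

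Of the uptake genes, Cd36 measured 126 and 125 FPKM with agonist and 160 and 160 FPKM with vehicle in Ex3a OVX cells, and 166 and 167 FPKM with agonist and 205 and 200 FPKM with vehicle in ERKO OVX cells. It measured 213 and 224 FPKM with agonist and 303 and 295 FPKM with vehicle in KO cells, and 595 and 581 FPKM with agonist and 782 and 772 FPKM with vehicle in WT cells. Every agonist library was below every vehicle library of its arm. The fall was modest, at -0.35 ± 0.04 in Ex3a OVX, -0.28 ± 0.04 in ERKO OVX, -0.45 ± 0.03 in KO and -0.40 ± 0.03 in WT cells (log2 ± SE, limma adjusted p = 0.000154, 0.000652, 7.01e-07 and 1.20e-06).

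Lpl, which lies on chromosome 8 (chr8:68880491-68907448, plus strand), measured 250 and 244 FPKM with agonist and 362 and 360 FPKM with vehicle in Ex3a OVX cells, and 258 and 259 FPKM with agonist and 313 and 313 FPKM with vehicle in ERKO OVX cells. It measured 320 and 339 FPKM with agonist and 328 and 312 FPKM with vehicle in KO cells, and 277 and 265 FPKM with agonist and 295 and 293 FPKM with vehicle in WT cells. The KO libraries overlapped and the others did not. Lpl fell by 0.54 ± 0.05 in Ex3a OVX cells and by 0.27 ± 0.05 in ERKO OVX cells (adjusted p = 3.60e-05 and 0.00223). In KO cells the difference was 0.04 ± 0.03 (adjusted p = 0.353). In WT cells it was -0.12 ± 0.03 (adjusted p = 0.0153), a call that did not hold without WT vehicle replicate 1 (-0.11, adjusted p = 0.0757), WT vehicle replicate 2 (-0.12, adjusted p = 0.0575) or WT agonist replicate 2 (-0.09, adjusted p = 0.110).

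Of the 13 tested genes in a list of other fatty acid and lipoprotein uptake genes, 5 rose and 8 fell with agonist in WT cells (3 and 8 when libraries were scaled to equal FPKM sums) and 3 rose and 8 fell in KO cells. Cav1 (caveolin-1, a coat protein of membrane pits linked to fatty acid uptake) rose to 28.2 FPKM in WT agonist cells, against 5.38 FPKM in WT vehicle cells (2.19 ± 0.03, adjusted p = 4.55e-11), and Olr1, a receptor for oxidized LDL, to 44.6 FPKM against 33.2 FPKM. The fatty acid transporter Slc27a1 fell to 8.97 FPKM with agonist in WT cells, against 16.7 FPKM with vehicle, and its relative Slc27a3 to 8.34 FPKM against 14.1 FPKM. Of 7 tested partners and inhibitors of lipoprotein lipase, 2 rose and 3 fell in WT cells (0 and 3 with equal sums). Angptl4, a secreted inhibitor of the lipase, fell to 1.14 FPKM with agonist in WT cells, against 4.03 FPKM with vehicle, and to 0.982 FPKM with agonist in KO cells, against 2.67 FPKM with vehicle.

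The 3 fatty acid-binding proteins did not move together. Fabp3, the heart-type carrier (chr4:130308595-130315463, plus strand), measured 21.6 and 20.9 FPKM with agonist and 7.76 and 5.85 FPKM with vehicle in Ex3a OVX cells, and 22.5 and 23.0 FPKM with agonist and 11.0 and 9.23 FPKM with vehicle in ERKO OVX cells. It measured 6.63 and 4.38 FPKM with agonist and 1.17 and 0.801 FPKM with vehicle in KO cells, and 8.16 and 6.75 FPKM with agonist and 1.31 and 1.81 FPKM with vehicle in WT cells. All agonist libraries stood above the vehicle libraries of their arm. The mean FPKM was 3.12 times as high with agonist in Ex3a OVX, 2.25 times in ERKO OVX, 5.58 times in KO and 4.77 times in WT cells (log2 1.51 ± 0.28, 1.09 ± 0.28, 1.70 ± 0.20 and 1.72 ± 0.20, with adjusted p = 0.00806, 0.0264, 0.000609 and 0.000472). With a pseudocount of 0.1 FPKM in place of 1, the rise in ERKO OVX cells was 1.16 (adjusted p = 0.0634). Fabp3 overlaps Zcchc17 on the opposite strand. Zcchc17 itself measured 12.8 to 20.1 FPKM over the 16 libraries, and the sources used here do not state whether counting used strand.

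Fabp4, the adipocyte-type carrier that macrophages and dendritic cells also make, went the other way. It measured 14.0 and 12.7 FPKM with agonist and 33.3 and 38.6 FPKM with vehicle in Ex3a OVX cells, and 10.6 and 7.81 FPKM with agonist and 17.6 and 17.4 FPKM with vehicle in ERKO OVX cells. It measured 11.0 and 12.1 FPKM with agonist and 27.9 and 30.7 FPKM with vehicle in KO cells, and 12.7 and 13.0 FPKM with agonist and 31.0 and 33.2 FPKM with vehicle in WT cells. Agonist libraries did not overlap vehicle libraries in any arm, and the ERKO OVX vehicle libraries were the lowest of the vehicle libraries. Fabp4 fell by 1.37 ± 0.08 in Ex3a OVX, by 0.86 ± 0.08 in ERKO OVX, by 1.27 ± 0.06 in KO and by 1.26 ± 0.06 in WT cells (adjusted p = 3.53e-06, 6.44e-05, 7.50e-08 and 5.72e-08).

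Fabp5, the epidermal-type carrier, made up 93.6 to 96.7% of the summed FPKM of the 3 carriers in each library. It measured 893 and 878 FPKM with agonist and 1215 and 1217 FPKM with vehicle in Ex3a OVX cells, and 486 and 481 FPKM with agonist and 757 and 762 FPKM with vehicle in ERKO OVX cells. It measured 440 and 441 FPKM with agonist and 710 and 737 FPKM with vehicle in KO cells, and 519 and 517 FPKM with agonist and 845 and 839 FPKM with vehicle in WT cells. The agonist libraries of Ex3a OVX cells lay above the vehicle libraries of every other arm. Fabp5 fell by 0.46 ± 0.03, 0.65 ± 0.03, 0.72 ± 0.02 and 0.70 ± 0.02 in Ex3a OVX, ERKO OVX, KO and WT cells (adjusted p = 6.81e-06, 1.86e-06, 7.09e-09 and 4.37e-09). Fabp5 (chr3:10012548-10016607, plus strand) and Fabp4 (chr3:10204088-10208576, minus strand) lie 187 kb apart, and the related Pmp2 and Fabp9 between them did not exceed 0.0930 FPKM in any library. The annotation also names a Fabp5-like gene (Fabp5l2) and a Fabp3 pseudogene without rows of their own in the table, so reads shared with them would be uncertain.

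Apoe (chr7:19696109-19699188, minus strand) measured 0.480 and 0.373 FPKM with agonist and 1.14 and 1.66 FPKM with vehicle in Ex3a OVX cells, and 0.300 and 0.293 FPKM with agonist and 0.404 and 0.429 FPKM with vehicle in ERKO OVX cells. It measured 0.636 and 0.423 FPKM with agonist and 0.566 and 0.630 FPKM with vehicle in KO cells, and 1.13 and 0.997 FPKM with agonist and 1.37 and 1.69 FPKM with vehicle in WT cells. These are low levels, and the KO libraries overlapped. The agonist mean was 3.28-fold lower in Ex3a OVX and 1.44-fold lower in WT cells, the arms through which Apoe passed the filter. The log2 difference was -0.13 ± 0.12 in ERKO OVX and -0.07 ± 0.08 in KO cells (adjusted p = 0.433 and 0.551). Of 7 other lipid carriers tested, 3 rose and 3 fell in WT cells, with Stard4, a sterol carrier, at 16.9 FPKM with agonist against 13.7 FPKM with vehicle, and Pltp, the phospholipid transfer protein, at 61.1 FPKM against 65.8 FPKM.

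Acsl1, the first of the activation and storage genes, rose with agonist in all 4 arms. It measured 559 and 551 FPKM with agonist and 409 and 409 FPKM with vehicle in Ex3a OVX cells, and 633 and 630 FPKM with agonist and 444 and 442 FPKM with vehicle in ERKO OVX cells. It measured 215 and 216 FPKM with agonist and 89.4 and 82.7 FPKM with vehicle in KO cells, and 272 and 267 FPKM with agonist and 66.9 and 71.4 FPKM with vehicle in WT cells. The unoperated vehicle libraries were far below all others. Acsl1 rose by 0.44 ± 0.05 in Ex3a OVX, 0.51 ± 0.05 in ERKO OVX, 1.31 ± 0.04 in KO and 1.95 ± 0.04 in WT cells (adjusted p = 0.000274, 0.000128, 6.00e-09 and 3.06e-10). On the log2 scale the rise was smaller in KO than in WT cells by 0.63 ± 0.05 (interaction, adjusted p = 0.000245) and smaller in ERKO OVX than in KO cells by 0.80 ± 0.07 (adjusted p = 5.84e-05). In FPKM the ERKO OVX mean went from 443 to 632 and the KO mean from 86.0 to 215, so the step in FPKM was larger in ERKO OVX cells.

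Dgat2 (chr7:99153658-99182719, minus strand) measured 14.3 and 12.6 FPKM with agonist and 11.3 and 11.8 FPKM with vehicle in Ex3a OVX cells, and 24.4 and 25.5 FPKM with agonist and 18.3 and 18.0 FPKM with vehicle in ERKO OVX cells. It measured 4.15 and 3.98 FPKM with agonist and 2.72 and 2.65 FPKM with vehicle in KO cells, and 2.28 and 2.30 FPKM with agonist and 2.30 and 2.56 FPKM with vehicle in WT cells. WT agonist and vehicle libraries met at the same level, and in the other arms all agonist libraries were higher. The difference was 0.44 ± 0.07 in ERKO OVX and 0.46 ± 0.05 in KO cells (adjusted p = 0.000804 and 2.22e-05), and -0.06 ± 0.05 in WT cells (adjusted p = 0.305). The response of KO cells exceeded that of WT cells by 0.52 ± 0.07 (interaction, adjusted p = 0.00178). The rise of 0.20 ± 0.07 in Ex3a OVX cells (adjusted p = 0.0373) did not hold without Ex3a OVX agonist replicate 1 (0.11, adjusted p = 0.202) or vehicle replicate 1 (0.17, adjusted p = 0.0680), nor with equal FPKM sums (0.14, adjusted p = 0.132).

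Plin2 measured 225 and 227 FPKM with agonist and 308 and 307 FPKM with vehicle in Ex3a OVX cells, and 247 and 252 FPKM with agonist and 339 and 333 FPKM with vehicle in ERKO OVX cells. It measured 205 and 215 FPKM with agonist and 332 and 339 FPKM with vehicle in KO cells, and 387 and 368 FPKM with agonist and 622 and 612 FPKM with vehicle in WT cells. Agonist and vehicle libraries did not overlap in any arm, and WT cells stood above the other arms under both treatments. Plin2 fell by 0.44 ± 0.04 in Ex3a OVX, 0.43 ± 0.04 in ERKO OVX, 0.68 ± 0.03 in KO and 0.71 ± 0.03 in WT cells (adjusted p = 6.40e-05, 9.87e-05, 8.24e-08 and 4.47e-08).

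Of 17 tested genes in a list of other acyl-CoA synthetases and triglyceride synthesis enzymes, 7 rose and 5 fell in WT cells (3 and 7 with equal sums, 4 and 7 with median-ratio scaling). Acsl5, a relative of Acsl1, rose to 74.4 FPKM with agonist in WT cells, against 43.9 FPKM with vehicle (0.75 ± 0.02, adjusted p = 4.13e-09), whereas Dgat1, the other enzyme of the last step of triglyceride synthesis, fell to 9.81 FPKM against 14.7 FPKM and Soat1, which esterifies cholesterol, to 66.2 FPKM against 100 FPKM. Of 10 tested droplet coat and lipolysis genes, 1 rose and 6 fell in WT cells (0 and 8 with equal sums, 0 and 6 with median-ratio scaling). G0s2, an inhibitor of adipose triglyceride lipase, fell to 2.01 FPKM with agonist in WT cells, against 4.26 FPKM with vehicle, and the lipase gene Pnpla2 measured 53.6 FPKM against 50.4 FPKM.

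Lipa measured 309 and 306 FPKM with agonist and 382 and 383 FPKM with vehicle in Ex3a OVX cells, and 300 and 295 FPKM with agonist and 345 and 341 FPKM with vehicle in ERKO OVX cells. It measured 163 and 172 FPKM with agonist and 219 and 219 FPKM with vehicle in KO cells, and 336 and 320 FPKM with agonist and 403 and 391 FPKM with vehicle in WT cells. Agonist libraries were lower in each arm, and KO libraries were the lowest of all. Lipa fell by 0.31 ± 0.04, 0.21 ± 0.04, 0.38 ± 0.03 and 0.27 ± 0.03 in Ex3a OVX, ERKO OVX, KO and WT cells (adjusted p = 0.000642, 0.00644, 5.59e-06 and 4.94e-05). Of 14 other genes of lysosomal lipid handling, all tested, 1 rose and 9 fell in Ex3a OVX cells, 0 rose and 6 fell in ERKO OVX cells (0 and 1 with equal sums), 0 rose and 11 fell in KO cells, and 0 rose and 11 fell in WT cells. The median difference over the list was -0.26, -0.11, -0.26 and -0.25, against 0.01, 0.00, 0.01 and 0.02 over all genes. Examples in WT cells are the lysosomal phospholipase Pla2g15, at 15.6 FPKM with agonist against 24.9 FPKM with vehicle, and Galc, which degrades galactosylceramide, at 24.6 FPKM against 35.8 FPKM.

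Cd36, Lipa and Plin2 were lower in KO than in WT cells under both treatments. With vehicle, 2 of the 10 genes were higher and 5 lower in KO cells, against 60.3% of all tested genes past the threshold (31.5% higher and 28.7% lower), and with agonist 2 were higher and 6 lower, against 54.8% (27.2% and 27.6%). Without Apoe, 2 were higher and 4 lower with vehicle and 2 higher and 5 lower with agonist. The median difference over the 10 genes was -0.29 with vehicle and -0.36 with agonist, and over all genes 0.01 and 0.00.

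**Figure D3:**
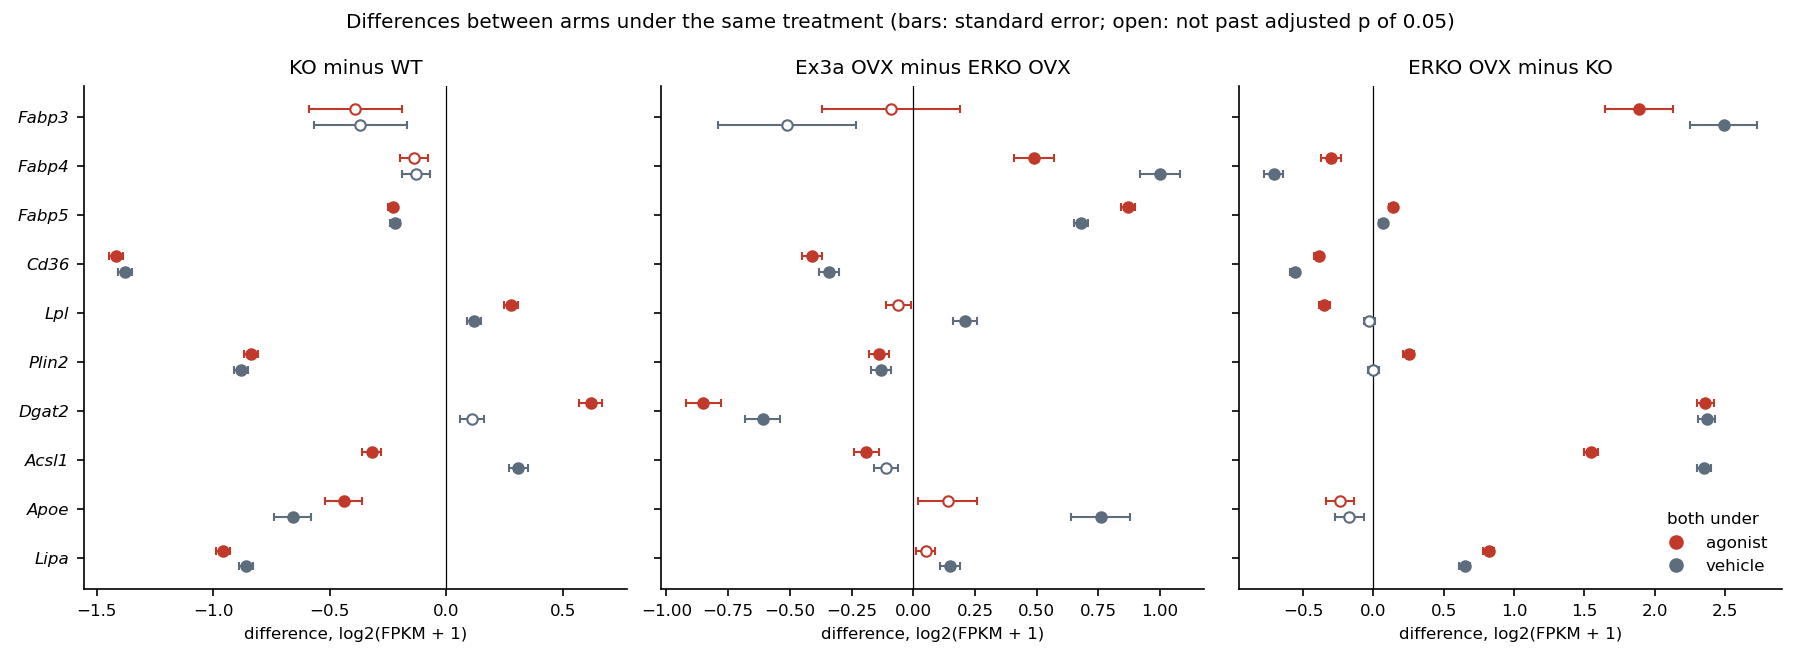
Difference between arms under the same treatment, on the log2(FPKM + 1) scale, with standard errors from limma. Red is agonist, grey is vehicle and open symbols did not pass an adjusted p of 0.05. For Apoe the filling carries no weight as a test in KO minus WT, or in Ex3a OVX minus ERKO OVX with vehicle. Cd36 lies near -1.4 in KO minus WT under both treatments, Fabp5 lies above 0 in Ex3a OVX minus ERKO OVX, and Fabp3, Dgat2 and Acsl1 lie above 1.5 in ERKO OVX minus KO.

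Cd36 averaged 299 FPKM in KO vehicle cells, against 777 FPKM in WT vehicle cells, and was 2.60-fold lower in KO cells with vehicle and 2.69-fold lower with agonist (-1.38 ± 0.03 and -1.42 ± 0.03, adjusted p = 3.42e-10 and 3.29e-10). Plin2 was 1.84-fold lower with vehicle and 1.80-fold lower with agonist (-0.88 ± 0.03 and -0.84 ± 0.03, adjusted p = 1.40e-08 and 1.89e-08). Lipa was 1.81-fold lower with vehicle and 1.96-fold lower with agonist (-0.86 ± 0.03 and -0.96 ± 0.03, adjusted p = 1.99e-08 and 9.51e-09). No KO library overlapped a WT library of the same treatment for these 3 genes, a separation whose share over all tested genes was not computed. Fabp5 was lower in KO cells by a smaller amount (-0.22 ± 0.02 and -0.23 ± 0.02, adjusted p = 1.52e-05 and 1.15e-05). The Apoe mean, at its low level, was 2.56-fold lower in KO cells with vehicle and 2.01-fold lower with agonist. On the log2(FPKM + 1) scale these Apoe differences were -0.66 and -0.44, smaller than those of Plin2 or Lipa. WT is an arm through which Apoe passed the filter.

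Fabp4 and Fabp3 did not pass the test between KO and WT cells. For Fabp4 the difference was -0.13 ± 0.06 with vehicle and -0.14 ± 0.06 with agonist (adjusted p = 0.0783 and 0.0582), and for Fabp3 -0.37 ± 0.20 and -0.39 ± 0.20 (adjusted p = 0.162 and 0.144). Without KO agonist replicate 1, the Fabp3 difference with agonist was -0.65 (adjusted p = 0.0148), and without KO agonist replicate 1 or 2 that with vehicle, still -0.37, passed (adjusted p = 0.0461 and 0.0471). Without KO agonist replicate 2, the Fabp4 difference with agonist was -0.21 (adjusted p = 0.0192), and without KO vehicle replicate 2 the Fabp4 difference with vehicle was -0.19 (adjusted p = 0.0303). Without KO vehicle replicate 1 or 2 the Fabp4 difference with agonist, still -0.14, passed (adjusted p = 0.0445 and 0.0446).

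Lpl and Dgat2 were higher in KO cells with agonist, at 0.28 ± 0.03 and 0.62 ± 0.05 (adjusted p = 8.42e-05 and 2.49e-06). With vehicle the Lpl difference was 0.12 ± 0.03 (adjusted p = 0.0124) and did not hold without KO vehicle replicate 1 (0.09, adjusted p = 0.103) or WT vehicle replicate 2 (0.12, adjusted p = 0.0646). The Dgat2 difference with vehicle was 0.11 ± 0.05 (adjusted p = 0.0752), and 0.16 (adjusted p = 0.0275) without WT vehicle replicate 2. Acsl1 was higher in KO cells with vehicle (0.31 ± 0.04, adjusted p = 7.44e-05) and lower with agonist (-0.32 ± 0.04, adjusted p = 6.87e-05).

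Lysosomal genes moved with Lipa. Of the 14 in the list, 1 was higher and 13 lower in KO vehicle cells, with a median of -0.40, and 1 was higher and 12 lower in KO agonist cells, with a median of -0.32. Psap, the precursor of the saposins that help lysosomal enzymes reach lipids, averaged 3353 FPKM in KO vehicle cells, against 7010 FPKM in WT vehicle cells (-1.06 ± 0.03, adjusted p = 3.39e-09). Gm2a, the GM2 ganglioside activator, averaged 76.8 FPKM against 139 FPKM, whereas Galc was higher, at 49.9 FPKM in KO vehicle cells against 35.8 FPKM in WT vehicle cells.

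**Figure D4:**
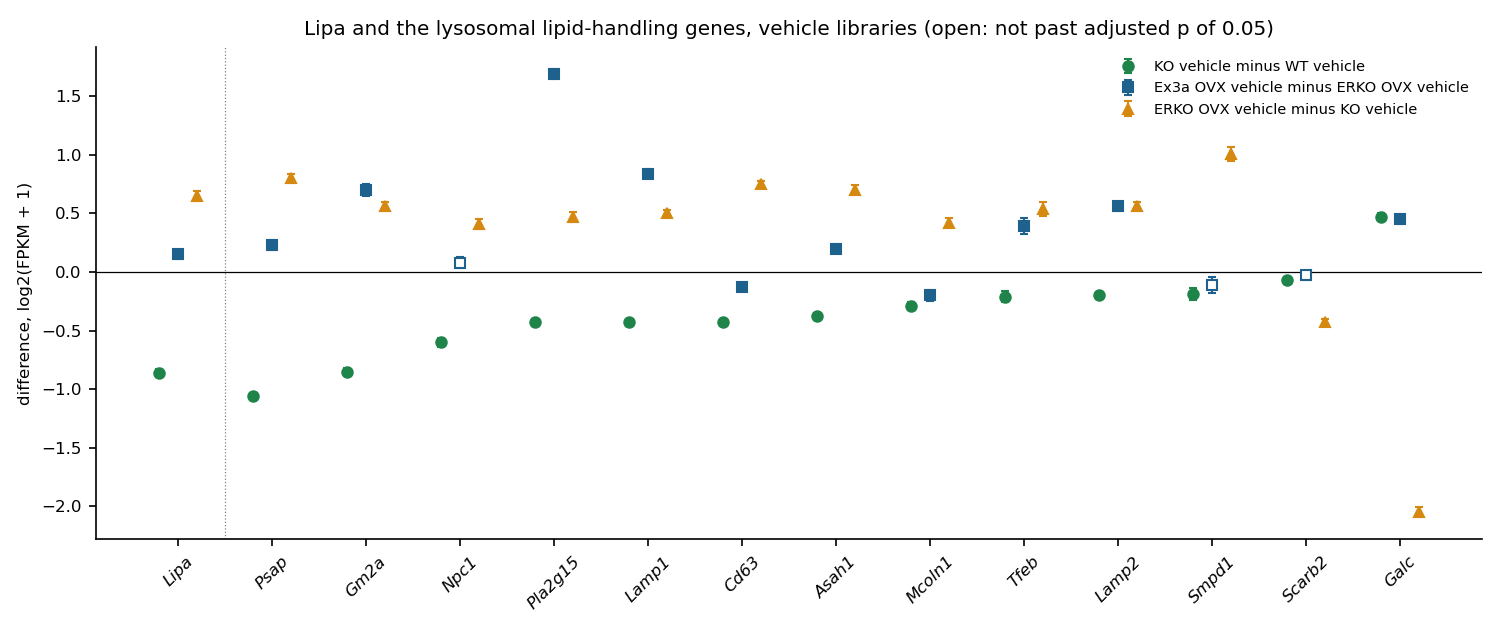
Difference in the vehicle libraries, on the log2(FPKM + 1) scale, for Lipa (left of the dotted line) and 13 of the 14 other lysosomal lipid-handling genes. Colours and shapes are the 3 comparisons between arms, bars are standard errors from limma, and open symbols did not pass an adjusted p of 0.05. In KO minus WT (green), Lipa and 12 of the 13 genes shown lie below 0, and Galc lies above 0.

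Other lists were mixed between KO and WT vehicle cells. Of the 13 other uptake genes 4 were higher and 5 lower, with the scavenger receptor Msr1 at 155 FPKM in KO against 282 FPKM in WT cells and Cav1 at 9.43 FPKM against 5.38 FPKM. Of 7 lipase partners 1 was higher and 5 lower, including Angptl2 at 2.80 FPKM against 7.55 FPKM. Of 7 other carriers 4 were higher and 1 lower, the retinol carrier Rbp4, at 4.75 FPKM in KO against 26.4 FPKM in WT cells (-2.26 ± 0.09, adjusted p = 9.00e-08). Of 17 activation and synthesis genes 2 were higher and 9 lower, with Soat1 at 61.6 FPKM against 100 FPKM. Of 10 droplet genes 3 were higher and 4 lower. The hypoxia-inducible droplet protein Hilpda was at 67.6 FPKM in KO against 140 FPKM in WT cells (-1.04 ± 0.05, adjusted p = 2.23e-07), and G0s2 at 8.09 FPKM against 4.26 FPKM.

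Macrophage markers moved in the same direction. Over 9 markers the summed level was 351 to 354 FPKM in KO and 1043 to 1080 FPKM in WT vehicle libraries, and 320 to 346 FPKM in KO and 934 to 965 FPKM in WT agonist libraries. C1qa, a defining marker, averaged 3.27 FPKM in KO and 113 FPKM in WT vehicle cells, and none of the 9 was at 0 in both libraries of a KO or WT group. The 8 dendritic markers went the other way, with a sum of 7201 to 7320 FPKM in KO and 5840 to 5853 FPKM in WT vehicle libraries. With agonist their sum was 7334 to 7444 FPKM in KO and 6232 to 6359 FPKM in WT libraries. The part of macrophage and dendritic markers in the differences of Cd36, Plin2, Lipa and Apoe was not tested.

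Ex3a OVX cells, set against ERKO OVX cells, had more Fabp4 and Fabp5 and less Dgat2 and Cd36. With vehicle, 5 of the 10 genes were higher and 3 lower, against 55.2% of all tested genes past the threshold (29.2% higher and 26.1% lower), and with agonist 2 were higher and 4 lower, against 62.7% (32.1% and 30.6%). Without Apoe, 4 were higher and 3 lower with vehicle. Their median difference was 0.02 with vehicle (-0.11 without Apoe) and -0.08 with agonist, against 0.02 and 0.00 over all genes. In these comparisons each group is 1 sample.

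Fabp4 averaged 35.9 FPKM in Ex3a OVX and 17.5 FPKM in ERKO OVX vehicle cells, a ratio of 2.06 (1.00 ± 0.08, adjusted p = 3.85e-06), and with agonist the ratio was 1.45 (0.49 ± 0.08, adjusted p = 0.000452). Fabp5 was 1.60 times as high with vehicle and 1.83 times with agonist (0.68 ± 0.03 and 0.87 ± 0.03, adjusted p = 6.98e-08 and 1.41e-08). Fabp3 did not pass the test (-0.51 ± 0.28 and -0.09 ± 0.28, adjusted p = 0.175 and 0.796). The Apoe mean was 3.36 times as high in Ex3a OVX cells with vehicle, a group through which it passed the filter, and with agonist the difference was 0.14 ± 0.12 (adjusted p = 0.341).

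Dgat2 was 1.57-fold lower in Ex3a OVX cells with vehicle and 1.86-fold lower with agonist (-0.61 ± 0.07 and -0.85 ± 0.07, adjusted p = 3.30e-05 and 2.71e-06). Cd36 was 1.27-fold lower with vehicle and 1.33-fold lower with agonist (-0.34 ± 0.04 and -0.41 ± 0.04, adjusted p = 5.87e-05 and 1.35e-05). Differences in Plin2 (-0.13 ± 0.04 and -0.14 ± 0.04, adjusted p = 0.0291 and 0.0166) were small. For Acsl1 the difference was -0.11 ± 0.05 with vehicle (adjusted p = 0.102) and -0.19 ± 0.05 with agonist (adjusted p = 0.0138). With vehicle Lpl was higher by 0.21 ± 0.05 and Lipa by 0.15 ± 0.04 (adjusted p = 0.00537 and 0.0155), and with agonist they did not pass (-0.06 ± 0.05 and 0.05 ± 0.04, adjusted p = 0.282 and 0.376). With equal FPKM sums the agonist differences were -0.22 for Lpl (adjusted p = 0.00334) and -0.11 for Lipa (adjusted p = 0.0570), where the median of all genes moved to -0.12.

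Of the lysosomal list, 8 were higher and 3 lower in Ex3a OVX vehicle cells. With agonist 6 were higher and 2 lower, or 4 and 6 with equal sums. Pla2g15 was at 85.0 FPKM in Ex3a OVX against 25.6 FPKM in ERKO OVX vehicle cells. Of the 13 other uptake genes 4 were higher and 6 lower with vehicle, led by Msr1 at 500 FPKM in Ex3a OVX against 157 FPKM in ERKO OVX cells and Cav1 at 20.4 FPKM against 70.7 FPKM. Of the 7 other carriers 2 were higher and 4 lower, with Pltp at 90.3 FPKM against 39.9 FPKM and Dbi, the acyl-CoA-binding protein, at 160 FPKM against 379 FPKM. Of the 7 lipase partners 2 were higher and 3 lower, of the 17 activation and synthesis genes 4 and 8, and of the 10 droplet genes 3 and 3. Apoc2, the activator of lipoprotein lipase, was at 3.07 FPKM in Ex3a OVX against 0.142 FPKM in ERKO OVX vehicle cells, and Angptl4 at 1.29 FPKM against 4.43 FPKM.

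Markers of other cells differed here as well. The 9 macrophage markers summed to 2010 to 2016 FPKM in Ex3a OVX and 926 to 928 FPKM in ERKO OVX vehicle libraries, and 7 granulocyte precursor markers to 242 to 247 FPKM and 1007 to 1009 FPKM, mostly S100a8. S100a8 averaged 173 FPKM in Ex3a OVX and 925 FPKM in ERKO OVX vehicle cells, and Mpo, Elane, Camp and Ngp were also lower in Ex3a OVX cells. Prtn3 (18.7 FPKM against 6.90 FPKM) and Ltf (2.08 FPKM against 1.25 FPKM) were higher in Ex3a OVX cells. Cd163 was at 0 in both libraries of these vehicle groups. With agonist the macrophage sums were 2440 to 2467 FPKM in Ex3a OVX and 1017 FPKM in ERKO OVX libraries, and the granulocyte sums 241 to 245 FPKM and 891 to 900 FPKM. Their part in the differences of the 10 genes was not tested.

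ERKO OVX cells, set against KO cells, differed most in Fabp3, Dgat2 and Acsl1. With vehicle 5 of the 10 genes were higher and 2 lower, against 80.9% of all tested genes past the threshold (41.0% higher and 39.9% lower), and with agonist 6 were higher and 3 lower, against 78.7% (40.1% and 38.5%). Most genes thus differed between these arms. With equal FPKM sums, which put the median of all genes at -0.34 with vehicle and -0.26 with agonist (0.01 in both as deposited), 4 were higher and 6 lower with vehicle and 4 higher and 5 lower with agonist. The medians over the 10 genes as deposited were 0.04 and 0.19.

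Fabp3 averaged 10.1 FPKM in ERKO OVX vehicle cells, against 0.988 FPKM in KO vehicle cells, a ratio of 10.2, and the ratio was 4.12 with agonist (2.49 ± 0.24 and 1.89 ± 0.24, adjusted p = 9.68e-05 and 0.000437). Dgat2 was 6.75 times as high with vehicle and 6.14 times with agonist (2.37 ± 0.06 and 2.36 ± 0.06, adjusted p = 2.09e-10 and 2.56e-10). Acsl1 was 5.15 times as high with vehicle and 2.94 times with agonist (2.35 ± 0.05 and 1.55 ± 0.05, adjusted p = 8.41e-11 and 1.21e-09). Lipa was higher by 0.65 ± 0.04 and 0.82 ± 0.04 (adjusted p = 1.33e-07 and 2.53e-08). These 4 genes were higher under both treatments with all 3 scalings.

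Cd36 was lower in ERKO OVX cells (-0.56 ± 0.03 with vehicle and -0.39 ± 0.03 with agonist, adjusted p = 1.50e-07 and 2.94e-06), and so was Fabp4 with vehicle (-0.71 ± 0.07, adjusted p = 5.34e-06). The Fabp4 difference with agonist, -0.30 ± 0.07 (adjusted p = 0.00269), was -0.12 (adjusted p = 0.145) without ERKO OVX agonist replicate 2. Lpl was lower with agonist (-0.35 ± 0.04, adjusted p = 3.10e-05) and did not pass with vehicle (-0.03 ± 0.04, adjusted p = 0.472, or -0.44 and 3.97e-06 with equal sums). Fabp5 differed by 0.07 ± 0.03 and 0.14 ± 0.03 (adjusted p = 0.0335 and 0.000935) and turned to -0.34 and -0.18 with equal sums. The vehicle value was 0.04 (adjusted p = 0.163) without KO vehicle replicate 1, and 0.07 (adjusted p = 0.0563) without WT vehicle replicate 1 or 2. Plin2 differed by 0.00 ± 0.04 with vehicle (adjusted p = 0.976) and by 0.25 ± 0.04 with agonist (adjusted p = 0.000147), and with equal sums by -0.41 and -0.06. For Apoe the difference was -0.17 ± 0.10 and -0.24 ± 0.10 (adjusted p = 0.148 and 0.0605), and -0.34 (adjusted p = 0.0168) with agonist without KO agonist replicate 2.

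Of the 14 lysosomal genes, 12 were higher and 2 lower under both treatments, with medians of 0.55 and 0.75, against 0.01 over all genes. With equal sums 9 were higher and 2 lower with vehicle and 12 higher and 2 lower with agonist. Smpd1, the acid sphingomyelinase, was at 16.4 FPKM in ERKO OVX against 7.65 FPKM in KO vehicle cells, and Galc at 11.3 FPKM against 49.9 FPKM. Other lists depended on the scaling. With vehicle as deposited, 6 of the 13 other uptake genes were higher and 4 lower (4 and 8 with equal sums), 5 of the 7 lipase partners were higher and 0 lower (3 and 3), 3 of the 7 other carriers were higher and 3 lower (3 and 4), 11 of the 17 activation and synthesis genes were higher and 5 lower (7 and 7) and 5 of the 10 droplet genes were higher and 3 lower (2 and 6). Rbp4 was at 128 FPKM in ERKO OVX against 4.75 FPKM in KO vehicle cells (4.49 ± 0.11, adjusted p = 9.53e-10), and Cav1 at 70.7 FPKM against 9.43 FPKM.

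The 7 granulocyte precursor markers summed to 1007 to 1009 FPKM in ERKO OVX and 79.8 to 88.7 FPKM in KO vehicle libraries, and the 9 macrophage markers to 926 to 928 FPKM and 351 to 354 FPKM. S100a8 averaged 925 FPKM in ERKO OVX and 75.9 FPKM in KO vehicle cells. With agonist the granulocyte sums were 891 to 900 FPKM and 98.5 to 100 FPKM, and the macrophage sums 1017 FPKM and 320 to 346 FPKM. Their part in the higher Fabp3, Dgat2, Acsl1 and Lipa was not tested.

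The pattern of each gene was compared with all others over the 12 samples, which share arms and treatments, so the correlations only describe. Acsl1 and Fabp3 were like each other (Pearson r = 0.96), and Acsl1 was also the member most like Dgat2 (r = 0.81). Cd36 and Plin2 were each other's nearest member (r = 0.85), and Fabp4 and Fabp5 likewise (r = 0.80). Plin2 was the member nearest to Lipa (r = 0.69) and to Apoe (r = 0.76), and Lpl had no member closer than Fabp4 (r = 0.49). Among all genes, Lipa was most like Psap (r = 1.00), Cisd2 (0.99) and Npc1 (0.99), of which Psap and Npc1 belong to the lysosomal list. Cd36 was most like Tfrc (0.99), 1700018L02Rik (0.99) and Arg1 (0.98), and Plin2 most like Parvb (0.97), Tm6sf1 (0.96) and Nab2 (0.96). For Acsl1 the nearest were Fpr2, Gch1 and Igsf6 (0.99 each), for Dgat2 Gramd3, Pdhb and Igfbp7 (0.99 each), and for Fabp3 Dld, Igsf6 and Tmem5 (0.98 each). Fabp4 was most like Zranb3 (0.98), Efcab4a (0.97) and Mctp1 (0.97), Fabp5 most like Itgb5 (0.99), Xdh (0.98) and Pde7b (0.98), and Apoe most like Notch1 (0.94), Abcg2 (0.92) and Gpx3 (0.92). Lpl was the least matched, with Slc6a20a at 0.82, Suclg2 at 0.81 and Mcmbp at 0.81.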

How the data were processed

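RNA was measured by paired-end sequencing of TruSeq libraries in 16 libraries, 2 in each of 8 groups, and groups follow the source labels. The deposited table gives FPKM; the sources used here do not name the program behind it. STAR, HTSeq and the mouse build mm10 are named per the submitters' processing notes. The labels state that some libraries lost a raw read file and mention triplicates (here 2 libraries per group). The labelled loxoribine dose was not used, since its unit could not be checked.

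From the table, 1236 rows of small RNAs were left out, 5 zeros in 4 otherwise well expressed genes were read as missing, and genes reaching 1 FPKM in at least 2 libraries were kept. The members and the lists were chosen with earlier results of these data known. The limma trend method with robust fitting (limma 3.58.1, R 4.3.3) was fitted to log2(FPKM + 1), a scale that understates changes of low genes. The fit held 12 samples with 4 residual degrees of freedom, all from unoperated libraries, because each ovariectomized pair was averaged. The Benjamini-Hochberg adjustment ran over all genes within each of 13 comparisons, several of which share libraries, with a threshold of 0.05, and the method was tested on simulated data. Depth was estimated from the spacing of low FPKM in 4186 genes with 1 transcript, where 46.9 to 55.2% of values lay within 0.1 of a whole number, too few to recover reads. Positions are from GENCODE M21 (mm10), and promoter sequences are from RefSeq (GRCm38.p6). From each list the text names genes among the 2 largest called rises and the 2 largest called falls of a comparison. All 10 members are given; 1 gene of the lysosomal list counts in its totals but is not reported here. Alternatives were other pseudocounts, filters and scalings, all 16 libraries as samples, a replicate block, plain limma, the unoperated libraries alone and leaving out each library. Member counts without Apoe were added after the data were seen.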

Additional observations from a re-analysis of the deposited data

Results flagged for a closer look

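For 12 results the agonist response itself differed between arms by the interaction term of the fit (limma, adjusted p under 0.05), out of 30 such tests on the 10 genes. The 12 include Apoe in Ex3a OVX minus ERKO OVX, which carries no weight as a test. Over all tested genes, 6.95% of interactions passed for KO minus WT, 31.3% for Ex3a OVX minus ERKO OVX and 23.8% for ERKO OVX minus KO, so a difference was common in the last comparisons. No group had the 4 samples that a test for a single deviating library needs.

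Between KO and WT cells, the response of Dgat2 differed by 0.52 (adjusted p = 0.00178) and that of Acsl1 by -0.63 (adjusted p = 0.000245). With equal FPKM sums 2 genes were higher and 1 lower in this comparison, in place of 1 and 1. Between Ex3a OVX and ERKO OVX cells, the response of Fabp4 differed by -0.51, of Lpl by -0.27 and of Fabp5 by 0.19 (adjusted p = 0.00887, 0.0161 and 0.00911). That of Apoe differed by -0.62, given as a value with no test. With equal sums 0 genes were higher and 6 lower here, and Fabp5 was at 0.06 (adjusted p = 0.317). Between ERKO OVX and KO cells, the response of Acsl1 differed by -0.80, of Lpl by -0.32, of Fabp4 by 0.41, of Plin2 by 0.25, of Lipa by 0.18 and of Cd36 by 0.17 (adjusted p = 5.84e-05, 0.00528, 0.0151, 0.00899, 0.0431 and 0.0289).

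The Fabp4 differences rest on 1 library. Without ERKO OVX agonist replicate 1 they were -0.30 between Ex3a OVX and ERKO OVX cells (adjusted p = 0.0725) and 0.20 between ERKO OVX and KO cells (adjusted p = 0.162). The Apoe difference involves the Ex3a OVX vehicle group, through which Apoe passed the filter on low values, and carries no weight as a test. Without Ex3a OVX vehicle replicate 2 it was -0.46. The Cd36 and Lipa differences between ERKO OVX and KO cells lay close to the threshold and missed it without KO vehicle replicate 1 (0.16 and 0.18, adjusted p = 0.0770 and 0.0878), KO agonist replicate 1 (0.14 and 0.14, adjusted p = 0.0508 and 0.0847), WT vehicle replicate 1 (0.17 and 0.18, adjusted p = 0.0505 and 0.0613) or WT vehicle replicate 2 (0.17 and 0.18, adjusted p = 0.0504 and 0.0612), and that of Lipa also without KO vehicle replicate 2 (0.18, adjusted p = 0.0865) or ERKO OVX agonist replicate 1 (0.17, adjusted p = 0.0543).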

How the results depend on the processing

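Of 2943 recomputed values of single members, 2851 kept their direction and their side of the threshold, 55 lost the call, 26 gained one and 11 changed sign. Without the filter on low values, 2 of the 10 genes in place of 4 passed for the response of Ex3a OVX minus ERKO OVX and 3 in place of 6 for ERKO OVX minus KO, where more genes enter the adjustment; every other count of genes called stayed within 1.5 times. With equal FPKM sums, ERKO OVX minus KO turned to -0.34 with vehicle and -0.18 with agonist for Fabp5 and to -0.41 and -0.06 for Plin2, and Ex3a OVX minus ERKO OVX with agonist turned to -0.11 for Lipa; under that scaling the median of all genes is itself at -0.34, -0.26 and -0.12 in these comparisons. With median-ratio scaling Plin2 was at -0.02 in ERKO OVX minus KO with vehicle. Leaving out each library, values that changed sign spanned -0.01 to 0.02 for Plin2 and -0.07 to 0.00 for Lpl in ERKO OVX minus KO with vehicle, and 0.00 to 0.08 for Lpl and -0.17 to 0.03 for Apoe in the KO agonist response. The number of genes called, leaving out each library, was 6 to 8 for KO minus WT with vehicle and 7 to 9 for the WT agonist response. Replicate numbers did not pair the samples, since deviations of same-numbered unoperated libraries correlated at -0.07 to 0.07. With the replicate block, Fabp4 passed in KO minus WT (-0.13 and -0.14, adjusted p = 0.0130 and 0.00857), while Dgat2 in the Ex3a OVX response (0.20, adjusted p = 0.0534) and Lipa in the response of ERKO OVX minus KO (0.18, adjusted p = 0.0644) did not. Depth limits Apoe and, in unoperated vehicle libraries, Fabp3, which lie near 1 FPKM.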

Other observations

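Genes of cholesterol export and the lipid nuclear receptors, 14 of which were tested, were mixed with agonist in WT cells (6 rose and 4 fell, or 5 and 6 with equal FPKM sums). Abca1, which exports cholesterol, rose to 56.0 FPKM with agonist in WT cells, against 42.5 FPKM with vehicle, and Pparg, the receptor known to drive Fabp4, Cd36 and Plin2 in macrophages, fell to 2.29 FPKM against 4.65 FPKM. Over all tested genes 30.8% rose and 27.0% fell with agonist in WT cells. Between KO and WT vehicle cells 5 of the list were higher and 6 lower, against 31.5% and 28.7% of all tested genes. The shares higher and lower over all tested genes were 29.2% and 26.1% between Ex3a OVX and ERKO OVX vehicle cells. Between ERKO OVX and KO vehicle cells they were 41.0% and 39.9%. Abcg1, a second cholesterol exporter, was at 54.3 FPKM in KO against 39.8 FPKM in WT cells, and Cebpa, a factor of myeloid and adipocyte development, at 11.9 FPKM against 25.7 FPKM. Nr1h3, the oxysterol receptor LXRα, was at 66.7 FPKM in Ex3a OVX against 21.5 FPKM in ERKO OVX vehicle cells (1.59 ± 0.07, adjusted p = 3.73e-08), where 8 of the 14 were higher and 3 lower, and at 21.5 FPKM in ERKO OVX against 6.73 FPKM in KO vehicle cells (1.54 ± 0.06, adjusted p = 3.57e-09), where 9 were higher and 2 lower (5 and 7 with equal sums).

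Of 19 tested genes of fatty acid oxidation, 5 rose and 10 fell with agonist in WT cells. Ucp2, a mitochondrial carrier, fell to 137 FPKM against 194 FPKM, and Hadhb, a subunit of the trifunctional protein, rose to 37.4 FPKM against 29.5 FPKM. Between KO and WT vehicle cells 6 were higher and 5 lower, with Cpt1a, which admits fatty acids to mitochondria, at 39.3 FPKM in KO against 51.2 FPKM in WT cells. Between Ex3a OVX and ERKO OVX vehicle cells 2 were higher and 11 lower, with Acadl at 29.3 FPKM against 42.9 FPKM. Between ERKO OVX and KO vehicle cells 9 were higher and 6 lower as deposited, and 0 and 16 with equal sums. Under that scaling the median of all genes is itself at -0.34. Over all tested genes as deposited, 30.8% rose and 27.0% fell with agonist in WT cells. The shares higher and lower were 31.5% and 28.7% for KO minus WT with vehicle. They were 29.2% and 26.1% for Ex3a OVX minus ERKO OVX, and 41.0% and 39.9% for ERKO OVX minus KO, both with vehicle.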
